A study of Drosophila melanogaster with 6 samples.

Results

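Computed genes of Drosophila melanogaster, listed under a CG number in the deposited values, were examined for low RNA levels in embryos mutant for spo. The group was chosen from the values themselves. A feature entered if its symbol was CG and a number, if it averaged at least 5 TPM in wild type (TPM, a read level per gene length that is brought to the same sum in every library), if that mean was at least 2 times the spo mean, and if every spo library lay below every wild-type library. Of 15135 features, 6905 carry a CG symbol, 3239 of these averaged at least 5 TPM in wild type, and 114 met every criterion, which is 3.52% of the 3239. Among the 4772 features with other names at that level, 113 met the same numeric criteria, or 2.37%. Over all names, 227 of 8011 features at that level met them, or 2.83%. Since the criteria use the difference between the genotypes, that difference is described below without a test for any of the 114 genes.

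The study compared spo mutant with wild-type whole embryos at stage 14, with 3 libraries of polyadenylated RNA for each genotype, to look for genes that act downstream of ecdysone signalling. The spo allele, the way mutant embryos were picked and the number of embryos per library are not stated in the labels. The 3 values of a gene in a genotype are those of replicates 1, 2 and 3, and p-values measure only the spread between these libraries. In whole embryos, fewer cells that express a gene and less RNA per cell cannot be told apart.

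Ecdysone is the steroid hormone that times moulting and metamorphosis in insects, and a pulse of it also occurs in the middle of embryogenesis. It is made by the cytochrome P450 enzymes of the Halloween genes, of which spo (spook) is 1, and it binds a receptor formed by EcR and Usp. The bound receptor switches on a small set of nuclear receptor and transcription factor genes, which in turn act on tissue-specific targets. A CG number is the name that the genome project gave to a predicted gene, and many such genes have had no study of their function.

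The spo transcript itself stood at 0.610, 0.470 and 0.306 TPM in spo embryos, against 0.944, 0.726 and 0.696 TPM in wild type. These low levels, under 1 TPM in every library, did not overlap, and the spo transcript was not tested. Such an order, with all spo libraries below all wild-type libraries, held for 32.2% of the 8011 features averaging at least 5 TPM in wild type. A single read in a gene of 1 kb corresponds to 0.0315 to 0.0460 TPM, depending on the library. Differences of genes outside the group were tested with limma on log2(TPM + 1), with Benjamini-Hochberg adjustment over the 10019 features that reached 1 TPM in at least 3 libraries. Of these, which include the members, 27.9% were called lower and 33.9% higher in spo. Of 23 tested ecdysone response genes, 15 were lower and 4 higher, with a median log2 difference of -0.80 against 0.02 over all features tested. The 4 higher ones were EcR, Eip55E, tai and ftz-f1. Of these, ftz-f1 had 19.2, 21.5 and 19.2 TPM in spo against 0.973, 0.952 and 0.919 TPM in wild type. The markers of differentiated tissues were mostly lower too, with 3 of 4 genes of neurons, 5 of 6 of the epidermis and its apical matrix, 5 of 5 of the trachea and 5 of 5 of muscle. For hemocytes, He and Hml were under 1 TPM in every library and were not tested, crq was higher and Pxn lower. The 6 maternal RNAs were all higher in spo, with bcd at 11.5, 16.1 and 11.5 TPM against 0.424, 0.580 and 0.546 TPM in wild type. The part that a shift in these tissues or in maternal RNA has in the levels of the CG genes was not tested.

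The 114 genes ranged in wild type from a mean of 5.01 TPM for CG13694 to 1181 TPM for CG9184, with a median of 15.9 TPM. In spo embryos their means stood between 0.509% and 49.5% of wild type, with a median of 33.4%. The band next to the limit of the rule was the fullest. The spo mean was 40% to 50% of wild type in 45 genes, 30% to 40% in 21, 20% to 30% in 19, 10% to 20% in 17 and under 10% in 12. Leaving out spo replicate 2 put 22 genes at or below 10%, against 12 with it, and 11 genes at or below 5%, against 4. By level, 39 genes averaged 5 to 10 TPM in wild type, 51 averaged 10 to 50 TPM, 7 averaged 50 to 100 TPM and 17 averaged at least 100 TPM. The wild-type libraries resembled each other closely, with a median coefficient of variation of 3.28% over the group. In the authors' deposited table, the log2 fold changes of the group, spo over wild type, ran from -7.55 to -1.03 with a median of -1.60.

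**Figure D1:**
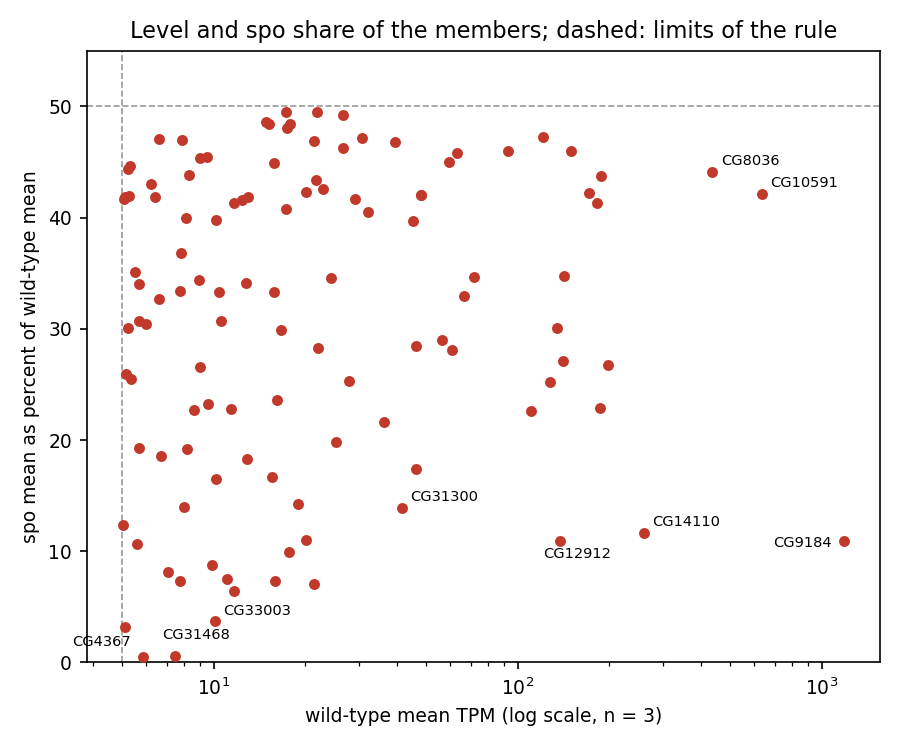
Each point is 1 of the 114 CG genes, with its wild-type mean in TPM on a log axis across (n = 3) and its spo mean as a percent of the wild-type mean up (n = 3); dashed lines mark the limits of 5 TPM and 50%. The points crowd between 40% and 50%, and CG9184, CG14110 and CG12912 combine a high wild-type level with a spo mean of 10.9% to 11.7%. CG12912 shares exon positions with Hr46 on the same strand, so its reads may be those of Hr46.

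At the fold limit, the last genes inside were CG13188 with a spo mean at 49.5% of wild type, CG2003 at 49.5% and CG3699 at 49.2%. The first outside were CG17047 at 50.2%, CG14301 at 50.3% and CG31103 at 50.5%. At the level limit, CG13694, CG13857 and CG34025 averaged 5.01, 5.07 and 5.09 TPM in wild type and entered, while CG34284, CG30172 and CG12817 averaged 4.97, 4.94 and 4.87 TPM and did not. At the level limit, the means on either side differ by less than the SDs between the wild-type libraries of these genes.

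The lowest spo values relative to wild type belonged to CG4367 and CG31468, both on chromosome arm 3R. CG4367 (20303955 to 20304977 in the BDGP6 assembly) had 0.0490, 0.0402 and 0 TPM in spo embryos, against 5.60, 5.59 and 6.34 TPM in wild type. These were 1, 1 and 0 reads in spo and 132, 125 and 189 reads in wild type. CG31468 (23699328 to 23700354) had 0.0476, 0.0780 and 0 TPM in spo and 7.70, 6.26 and 8.34 TPM in wild type. Both genes were thus close to undetected in every spo library, and a count of 0 in spo 3 allows up to 0.101 TPM for CG4367 and 0.0983 TPM for CG31468, taking 3 reads as the limit for counting error. CG42822 had 0, 0.261 and 0.219 TPM in spo and 5.03, 5.74 and 4.52 TPM in wild type, where the 0 in spo 1 allows up to 0.239 TPM. CG33003 had 0.317, 0.612 and 0.187 TPM in spo against 9.95, 9.61 and 10.8 TPM in wild type. CG4362, which starts 2560 bases from CG4367 on the same strand, had 0.444, 0.774 and 1.03 TPM in spo against 12.0, 11.9 and 11.1 TPM in wild type. CG12490 had 0.894, 0.916 and 0.693 TPM in spo against 10.7, 11.5 and 11.0 TPM in wild type. In these 6 genes the 3 spo libraries were all at or below 1.03 TPM.

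In the other 4 of the 10 lowest genes spo 2 stood further above the other spo libraries, at 5.24 to 13.8 times the mean of spo 1 and 3. Among the first 6, CG33003 had the same order to a lesser degree, at 2.43 times. CG13616 had 0.367, 3.76 and 0.422 TPM in spo against 20.6, 21.3 and 22.2 TPM in wild type. CG17780 had 0.507, 2.70 and 0.272 TPM in spo against 16.1, 16.5 and 15.2 TPM in wild type. CG17781 had 0.183, 1.25 and 0.295 TPM in spo against 6.82, 7.42 and 6.94 TPM in wild type. In each, spo 2 lay well above spo 1 and spo 3, and still far below wild type. CG13227 had 0.0913, 1.5 and 0.126 TPM in spo, with 8.92, 6.0 and 8.37 TPM in wild type, and was the fourth gene of this kind.

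**Figure D2:**
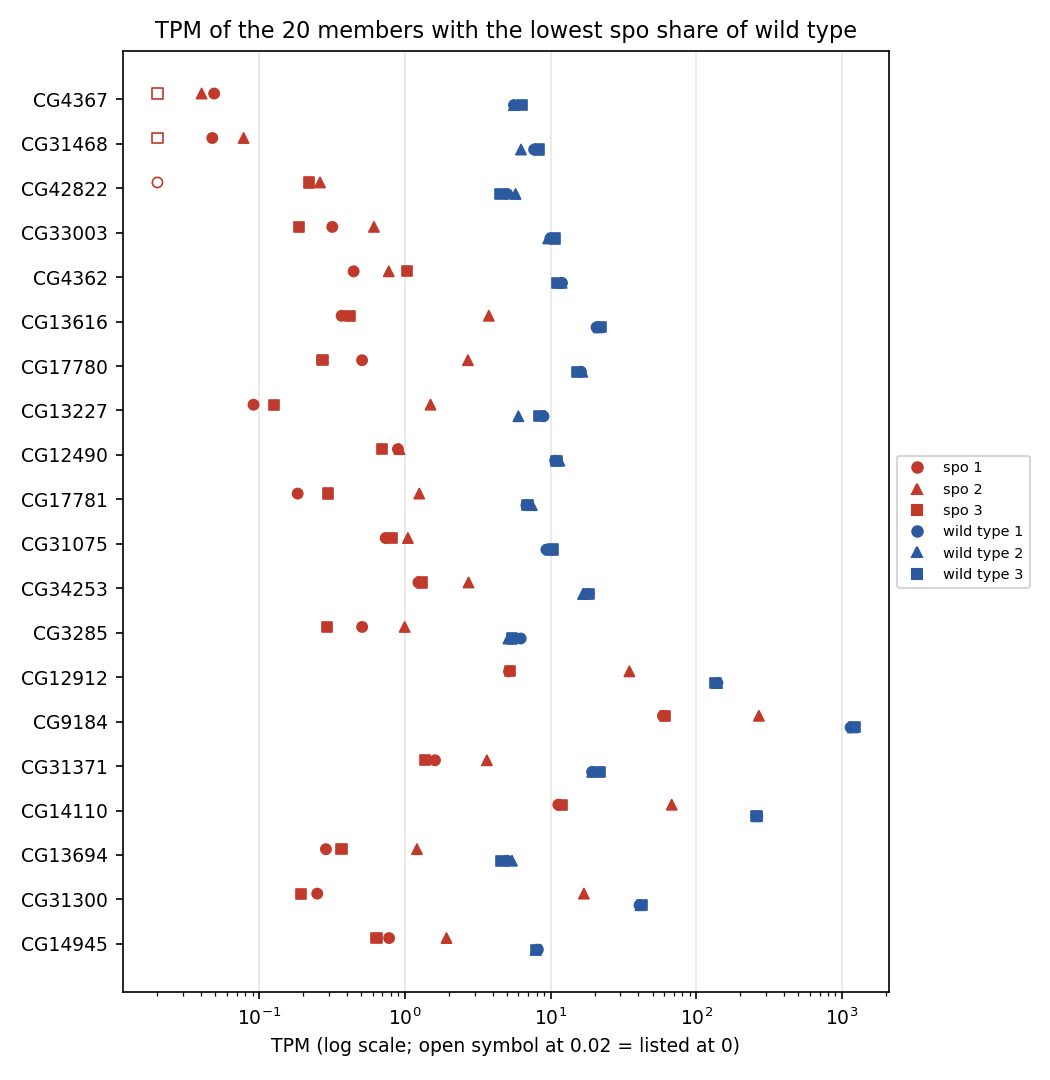
TPM on a log axis in each spo library (red) and each wild-type library (blue) for the 20 CG genes with the lowest spo mean relative to wild type, with circles, triangles and squares for replicates 1, 2 and 3 and open symbols for values listed at 0. The spo and wild-type values of a gene do not overlap, as the rule demands, and the red triangle of spo 2 stands to the right of the other spo symbols in most genes.

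The 6 most abundant members in wild type differed widely in how much RNA was left in spo. CG9184 (3L, 1321792 to 1322806) had 59.0, 269 and 60.6 TPM in spo embryos, against 1144, 1184 and 1216 TPM in wild type. CG14110 (3L, 13384789 to 13385925) had 11.3, 67.7 and 11.9 TPM in spo against 262, 260 and 258 TPM in wild type. They kept 11.0% and 11.7% of the wild-type mean. CG45075 had 40.6, 78.5 and 40.4 TPM in spo and 200.4, 201 and 195 TPM in wild type. It lies within Kr-h1, a zinc finger factor known from juvenile hormone signalling, on the same strand. The pair share exon positions, so reads there cannot be told apart. CG10591 had 254, 295 and 252 TPM in spo against 618, 646 and 637 TPM in wild type. CG8036 had 187, 204 and 187 TPM in spo against 429.6, 439 and 441 TPM in wild type. CG10591, CG8036 and CG11652, at 42.1%, 44.1% and 43.8% of wild type, kept the largest shares of these 6. CG10591 starts 7121 bases from the start of spo itself, the shortest distance among the 22 members on 3L. The part of this position in its level was not tested.

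Below these 6, 11 more members averaged over 100 TPM in wild type, and their values were taken up after they were seen. CG13362 had 31.6, 50.6 and 32.4 TPM in spo embryos against 140.1, 142 and 142 TPM in wild type. CG8420 had 27.0, 42.0 and 27.3 TPM in spo against 126, 128 and 128 TPM in wild type. CG13082 had 21.8, 30.9 and 22.3 TPM in spo, with 109.5, 107 and 114 TPM in wild type. In all 3 genes spo 1 and spo 3 nearly coincided and spo 2 stood above them. CG9416 had 45.5, 57.8 and 45.0 TPM in spo against 141, 143 and 144 TPM in wild type, and CG1273 had 71.0, 85.2 and 70.03 TPM in spo against 181.5, 184 and 182 TPM in wild type. CG34007 had 54.9, 58.8 and 57.3 TPM in spo against 122, 122 and 117 TPM in wild type, with spo 2 close to the other spo libraries. Further genes under a CG number stood at lower levels, with spo means of 8.78% to 17.4% of wild type. CG31075 had 0.737, 1.05 and 0.812 TPM in spo against 9.35, 9.82 and 10.4 TPM in wild type. CG31371 had 1.61, 3.65 and 1.38 TPM in spo against 19.2, 19.3 and 21.8 TPM in wild type. CG4822 had 6.20, 12.1 and 5.91 TPM in spo against 46.6, 47.7 and 44.9 TPM in wild type. Of these 3, CG31075 had the most even spo libraries.

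Of the 114 genes, 99 are still under a CG number in the annotation used, and 15 have another symbol there: 14 names of protein-coding genes and 1 long non-coding RNA (CG32368). Of the 14, 3 are known from the epidermis or the tracheal tubes. CG3921 is bark (bark beetle), which encodes a protein of tricellular junctions, and it had 14.1, 20.7 and 14.1 TPM in spo against 55.3, 56.8 and 56.8 TPM in wild type. CG11966 is ich, a zinc finger factor of the trachea, with 3.64, 7.99 and 3.36 TPM in spo against 25.3, 26.4 and 24 TPM in wild type. CG13188 is exp, a gene needed for tracheal tube size, with 8.35, 9.42 and 7.83 TPM in spo against 17.3, 17.3 and 17.1 TPM in wild type. Of these 3, exp lay next to the limit of the rule.

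Others of the renamed genes encode enzymes or binding proteins for small or lipid molecules. CG17323 is Ugt36D1, a UDP-glycosyltransferase, the enzyme class that couples sugars to small molecules, with 34, 52.7 and 34.7 TPM in spo against 134, 135 and 135 TPM in wild type. CG2016 is Jhbp2, named as a juvenile hormone binding protein, with 2.28, 3.98 and 1.83 TPM in spo against 19.4, 17.9 and 19.7 TPM in wild type. CG8498 is Acbp1, an acyl-CoA binding protein, with 67.5, 83.6 and 65.4 TPM in spo against 164, 175 and 174 TPM in wild type. In these 3 the spo mean was 30.03%, 14.2% and 42.2% of wild type. CG3394 is Fatp3, a fatty acid transport protein, at 42.3%. CG14945 is PLCXD, a protein with a phospholipase C X domain, at 13.9%, and CG5873 is cysu, a heme peroxidase, at 28.4%. CG11652 is Dph1, an enzyme of diphthamide synthesis on translation elongation factor 2, at 43.8%. CG31690 is Tmtc1, whose mammalian counterpart transfers mannose to proteins, also at 43.8%, and CG3822 is KaiR1D, a kainate-type glutamate receptor subunit, at 39.95%. CG34362 (trv) stood at 25.9% and CG2556 (mdu) at 33.4%.

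The libraries of spo embryos did not behave alike over the group. In 102 of 114 genes spo 2 was the highest spo library, in 8 it lay between the others and in 4 it was the lowest. Among all 10019 tested features spo 2 was the highest spo library in 4507 and the lowest in 3622. Its position was expressed as the percent of the gap between the mean of spo 1 and 3 and the wild-type mean that spo 2 covers, so that 0 means a value equal to spo 1 and 3, and 100 a value equal to wild type. The median over the 114 genes was 13.0%, with a range from -11.1% to 52.5%, and the median over the 113 other features that met the numeric criteria was 13.6%. The gap covered was 10% to 25% in 62 genes, over 25% in 10, 5% to 10% in 17, up to 5% in 19 and at or below 0 in 6.

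How far spo 2 stood apart showed little rank relation with how low a gene was. Across the 114 genes the Spearman correlation between the spo percent of wild type and the gap covered by spo 2 was 0.02, where all points share the same 6 libraries and spo 2 enters both measures. With the percent taken from spo 1 and 3 alone it was -0.17, where those libraries and wild type still enter both. CG31300 had 0.25, 16.9 and 0.194 TPM in spo embryos against 40.7, 41.4 and 42.4 TPM in wild type, so spo 2 was 76.2 times the mean of spo 1 and 3. CG14598 had 0.337, 2.61 and 0.335 TPM in spo against 5.73, 6.05 and 5.20 TPM in wild type, a ratio of 7.76. CG34025 had 1.80, 3.39 and 1.21 TPM in spo against 4.47, 5.52 and 5.29 TPM in wild type, with the largest gap covered, 52.5%. At the other end CG17121 had 1.99, 1.66 and 2.12 TPM in spo against 5.58, 5.69 and 5.69 TPM in wild type. CG12009 had 12.9, 10.9 and 12.6 TPM in spo against 28.8, 28.4 and 30.02 TPM in wild type. In these 2 genes and in CG30265, CG6293 and CG11652, the ratio of spo 2 to spo 1 and 3 was from 0.806 to 0.927.

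Among the 29 genes at or below 20% of wild type, 9 had a gap covered of under 5%, 2 of 5% to 10% and 18 of 10% or more. CG4367, CG4362, CG31468, CG12490 and CG42324 all stood at or below 1.20%, and CG42324 had 1.68, 1.72 and 1.62 TPM in spo against 10.5, 9.95 and 9.98 TPM in wild type. In the 15 ecdysone response genes called lower, the gap covered ran from -2.83% for ImpL3 and 0.802% for Eip71CD to 45.8% for Eip74EF. Hr46, a nuclear receptor gene of the ecdysone cascade, covered 21.8% of its gap, Blimp-1 24.9%, Eip78C 20.3%, ImpL1 6.96% and ImpE2 6.76%. The 6 maternal RNAs were also highest in spo 2, and the part of this in the members' levels was not tested. Without spo 2 the spo percent of wild type of 13 genes fell by more than 1.5 times. It became 0.320% against 0.564% for CG31468, a move within counting error, since spo 1, 2 and 3 hold 1, 2 and 0 reads of this gene. The percent became 1.84% against 7.09% for CG13616, 2.45% against 7.29% for CG17780 and 1.4% against 7.36% for CG13227. For CG17781 it became 3.39% against 8.17%, for CG12912 3.79% against 10.9% and for CG9184 5.06% against 11.0%. For CG14110 it became 4.47% against 11.7%, for CG13694 6.51% against 12.4%, for CG31300 0.534% against 13.9%, for CG14945 8.85% against 13.9%, for CG15506 7.0% against 16.6% and for CG14598 5.94% against 19.3%.

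**Figure D3:**
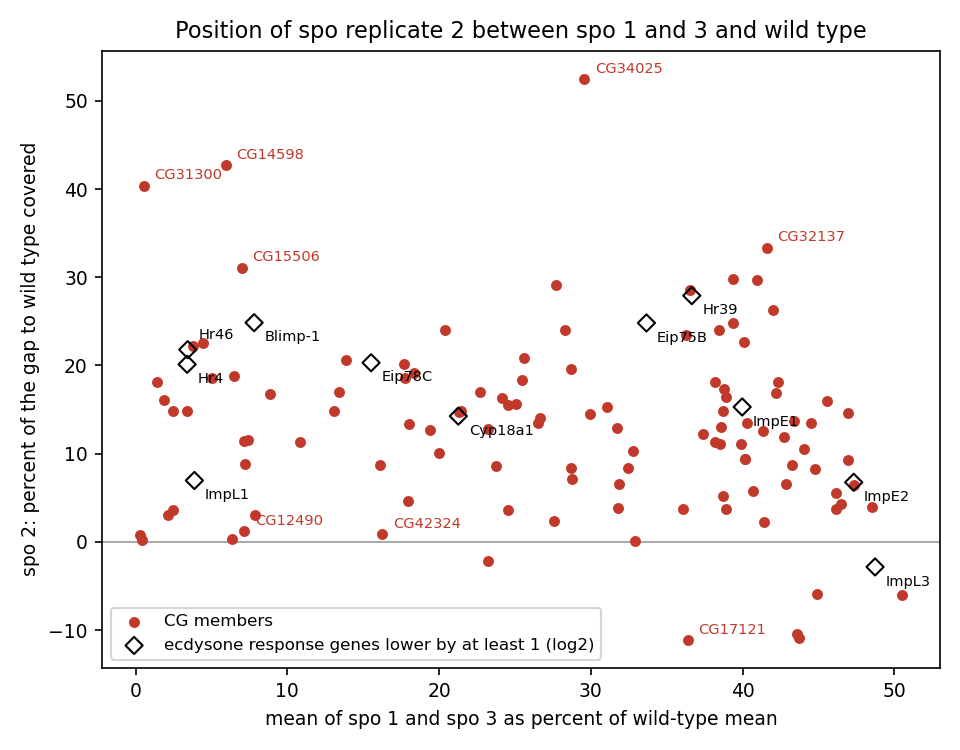
The mean of spo 1 and 3 as a percent of the wild-type mean (across) and the percent of the remaining gap to wild type that spo 2 covers (up), for the 114 CG genes (dots) and for the ecdysone response genes lower in spo by at least 1 on the log2 scale (diamonds). The dots reach from -11.1% for CG17121 to 52.5% for CG34025. CG31300 and CG14598 lie high and CG12490 and CG42324 near 0 at low spo levels, and the 6 genes below 0 all lie at 23.2% or more of wild type.

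Some members lay close to each other in the genome. Another member started within 10 kb for 19 of the 114 genes (16.7%), against 85 of 3123 other CG features at 5 TPM or more (2.72%), given as a description. On arm 3R, CG17781, CG17780 and CG13616 formed a row, with start sites 9391 and 7837 bases apart. On arm 2L, CG13694 and CG4822 started 5266 bases apart at the left end of the arm, with spo means at 12.4% and 17.4% of wild type. On arm 2R, CG13227 and CG34224 lay 2392 bases apart on opposite strands, and CG34224, with 33.1, 61.8 and 33.2 TPM in spo against 192, 180.5 and 188 TPM in wild type, was expressed far above its neighbour. CG30265 and CG12490 lay 2191 bases apart on the same strand at 41.6% and 7.54% of wild type, so members of a pair were not always alike. The other pairs were CG4367 with CG4362, CG6785 with CG14945, CG43646 with CG43647, CG14253 with CG31075, and CG42662 with CG30080, which have equal values in all 6 libraries and share all their reads. The 19 count both genes of this last pair. CG14253 and CG31075 share exon positions on opposite strands.

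The surroundings of CG17780 were followed over 50 kb to each side, an interval chosen after its values were seen. It held 21 features by start site, of which 3 were members and 15 others were tested. Of the 15, 9 were lower in spo, 2 were higher and 4 were not called, with 27.9% lower and 33.9% higher among all features tested, where 6 of the 9 reached 1 TPM in wild type alone and could be called only in 1 direction. CG17782, which lies 693 bases from CG17781, had 0, 0.610 and 0.0427 TPM in spo against 4.21, 3.88 and 3.61 TPM in wild type (limma adjusted p = 8.03e-05). CG13615 had 0.485, 1.29 and 0.25 TPM in spo against 4.26, 5.02 and 4.01 TPM in wild type (limma adjusted p = 0.00036). In these low genes, as in the members between them, spo 2 lay above spo 1 and 3, whose own order varied. The spo 1 and 3 values of CG17782 lie near the level of single reads, where their order is not resolved. CG33339 and CG33340 in the same interval were higher, with CG33340 at 19.0, 14.7 and 19.9 TPM in spo and 4.98, 6.42 and 5.99 TPM in wild type (log2 difference 1.47, SE 0.13, limma adjusted p = 6.38e-05). Golgin84, a Golgi protein gene, had 49.8, 50.4 and 49.6 TPM in spo against 50.01, 50.7 and 49.6 TPM in wild type and was not called.

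**Figure D4:**
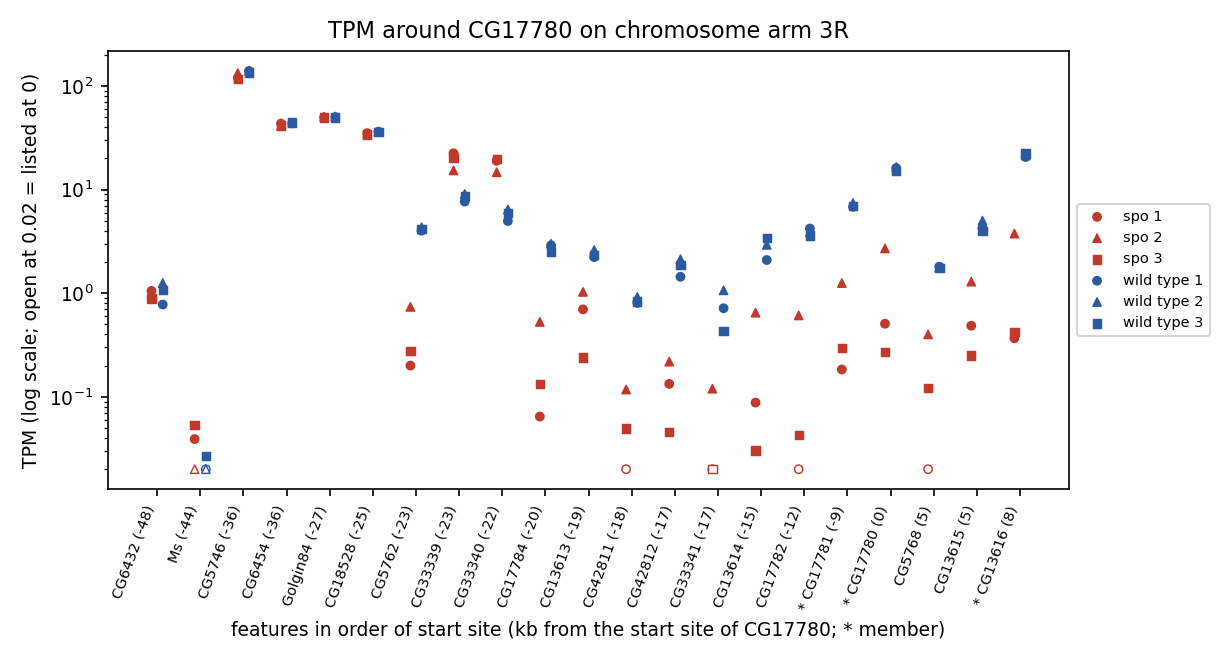
TPM on a log axis of the 21 features around CG17780 on arm 3R in the spo libraries (red) and wild-type libraries (blue), ordered by start site, with the distance in kb in brackets and stars for members; open symbols are values listed at 0. From CG17784 to CG13616 the red symbols lie below the blue ones, with spo 2 (triangle) highest of the 3, while CG33339 and CG33340 are higher in spo. Some spo values, as in CG42811 and CG33341, lie near the level of single reads, where the order of libraries is not resolved.

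The nearest measured gene on each side of every member, without overlap, gave 211 neighbours that are not members, of which 131 were tested. Of these, 53 were lower in spo (40.5%, against 27.9% of all features tested) and 42 were higher (32.1%, against 33.9%). Their median log2 difference was -0.03, against 0.02 over all features tested. Among them 11 were lower by at least 1 on the log2 scale (8.40%, against 2.62%), and 7 of the 131 reached 1 TPM in wild type alone (5.34%, against 1.53% of all features tested). The 11 include CG17782, CG5768, CG13615 and nAChRalpha1, which all lie beside the row of CG17781, CG17780 and CG13616 on arm 3R. Among non-members without overlap that start within 10 kb of a member, 79 of 227 tested were lower (34.8%). By at least 1 on the log2 scale, 14 of the 227 were lower (6.17%). All features tested include the members, which were chosen as low in spo, while the neighbours exclude them. With only features of at least 5 TPM in 3 libraries, 32 of 100 neighbours were lower (32.0%), against 28.6% of all features. With median-of-ratios scaling, 55 of 131 were lower (42.0%), against 30.7% of all features.

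Some of the neighbours are known ecdysone response genes. ImpE2, whose name records its induction by ecdysone, lies 78 bases from CG42324 and had 70.6, 74.3 and 67.6 TPM in spo against 144, 146 and 147 TPM in wild type (log2 difference -1.03, SE 0.04, limma adjusted p = 2.04e-06). ImpL1, another gene named for that induction, lies 789 bases from CG14110 and had 5.55, 15.2 and 5.62 TPM in spo against 147, 143 and 143 TPM in wild type (log2 difference -4.03, SE 0.33, limma adjusted p = 5.15e-05). In both pairs the neighbour was low beside a member that is low by the rule. Any link between the levels of a pair was not tested. Of all 131 tested neighbours, 53 were lower and 42 higher. Spo 2 covered 22.6% of the gap to wild type in CG14110 and 6.96% in ImpL1, against 0.885% in CG42324 and 6.76% in ImpE2. The ratio of spo 2 to the mean of spo 1 and 3 was 5.83 in CG14110 and 2.73 in ImpL1. That ratio was 1.05 in CG42324 and 1.08 in ImpE2. The nuclear receptor gene Hr4 lies 403 bases from CG3587 and E23, an ABC transporter gene, 1998 bases from CG3285. E23, which was picked after its values were seen, had 1.98, 8.19 and 2.15 TPM in spo against 29.6, 30.6 and 29.99 TPM in wild type, while CG3285 had 0.508, 0.995 and 0.292 TPM in spo against 6.22, 5.13 and 5.44 TPM in wild type. Hr4 had 3.90, 26.5 and 3.98 TPM in spo against 117, 114 and 117 TPM in wild type, while CG3587 had 16.7, 23.2 and 15.7 TPM in spo against 40.3, 38.6 and 39.9 TPM in wild type. The share left in spo thus differed, at 9.88% for Hr4 and 46.8% for CG3587. Without spo 2 these shares were 3.40% for Hr4 and 41.0% for CG3587, and that of ImpL1 was 3.87% against 6.10% with it.

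Of the neighbours called lower, ImpE2, betaTub60D and nAChRalpha1 had the smallest p. The tubulin gene betaTub60D, 7769 bases from CG3394, had 1189, 1274 and 1186 TPM in spo against 1803, 1807 and 1797 TPM in wild type (log2 difference -0.57, SE 0.03, limma adjusted p = 9.62e-06). The acetylcholine receptor subunit gene nAChRalpha1, 133 bases from CG13616, had 0.589, 0.705 and 0.471 TPM in spo against 3.32, 2.91 and 3.08 TPM in wild type (limma adjusted p = 1.90e-05). It reached 1 TPM in wild type alone and could be called only lower. Of those called higher, CG30272 lies 578 bases from the pair of CG30265 and CG12490 and had 79.9, 73.2 and 79.6 TPM in spo against 38.9, 39.4 and 40.4 TPM in wild type (log2 difference 0.95, SE 0.04, limma adjusted p = 3.65e-06). CG13217, 485 bases from CG34224, had 9.70, 9.20 and 8.58 TPM in spo against 3.04, 3.12 and 3.19 TPM in wild type (limma adjusted p = 5.84e-06), and CG7970, beside CG13920, stood at 171% of wild type with the same adjusted p.

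**Figure D5:**
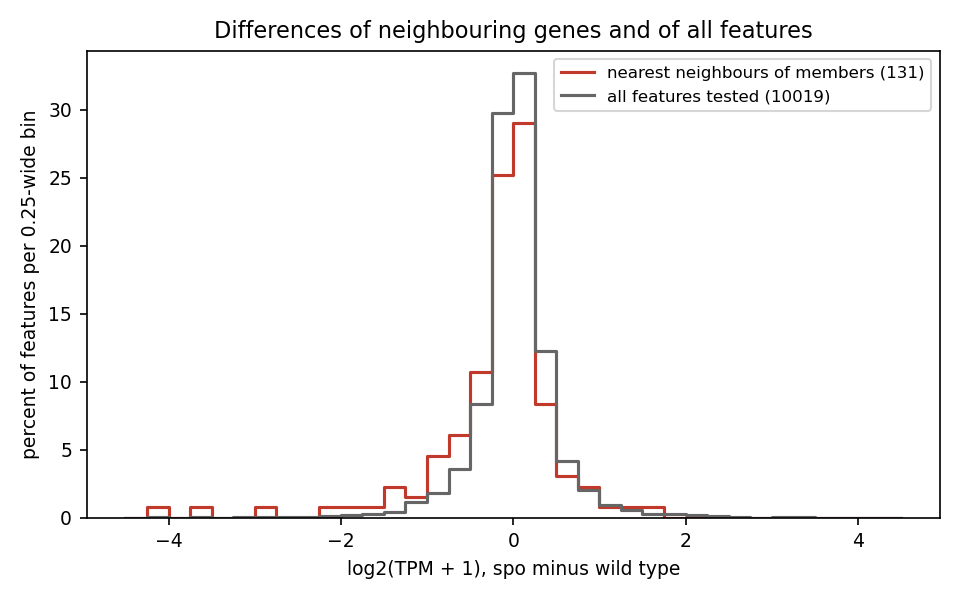
Distribution of the log2(TPM + 1) difference, spo minus wild type, in bins of 0.25 for the 131 tested neighbours of the CG genes (red) and for all 10019 tested features (grey), as percent of each set. Lower by at least 1 were 11 neighbours (8.40%, against 2.62% of all features tested), although the red line is at 0 in some bins of that range. The centres of both lie near 0, with medians of -0.03 and 0.02.

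Reads of overlapping genes limit what can be ascribed to a member. In the annotation, 50 of the 114 genes overlap another gene and 29 do so in exons. Exon positions were shared with another measured feature on the same strand by 9 members and on the opposite strand by 19, and the labels do not say whether reads were counted by strand. CG12912 lies within Hr46 on the same strand and shares exon positions with it, so its reads may be those of Hr46. The levels of CG12912 were 5.18, 34.7 and 5.26 TPM in spo against 139, 139 and 135 TPM in wild type. Those of Hr46 were 4.73, 33.7 and 4.72 TPM in spo against 140, 138 and 135 TPM in wild type. CG14042 and SP555 have equal values in every library, at 45.8% of wild type. CG34253 shares exon positions with CR32194, which had 0.329, 0.831 and 0.378 TPM in spo against 5.48, 5.25 and 5.68 TPM in wild type. CG9184 lies inside Myo61F, a class I myosin gene, without shared exons. Myo61F had 11.1, 11.8 and 12.0 TPM in spo against 20.8, 20.8 and 21.9 TPM in wild type, so it showed neither the level of CG9184 nor the rise in spo 2. Among 33 tested genes that overlap a member, 15 were lower (45.5%, against 27.9% of all features tested) and 7 higher (21.2%, against 33.9%). The 15 include genes whose reads may be those of a member, such as SP555.

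The group was set beside other CG genes in gene structure and position. The median exon length of its 113 protein-coding members was 1997 bases, against 1864.5 bases in 3120 other protein-coding CG genes with at least 5 TPM in wild type. Both sets had a median of 4 exon blocks, and the median longest protein was 423 amino acids in the group and 407 in the others. Arm 3R held 40 of the 114 members (35.1%), against 24.9% of the other CG genes. The X chromosome held 9 members (7.89%), against 17.1% of the others. The shares were 21.1% against 17.6% on 2L, 16.7% against 19.6% on 2R and 19.3% against 20.4% on 3L, and no member lay on chromosome 4. These shares are given without a test, since members of a run share their place.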

How the data were processed

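The authors deposited a table of TPM per feature and library and a table of their own comparison, from which only the log2 fold changes were used; its score, p-value and false discovery rate columns, also deposited by the authors, were not. The submitters' processing notes list STAR 2.5.3a as a tool, with FastQC 0.11.2, Subread with featureCounts, and edgeR, on build dm6. Not given in the sources used here are the annotation release, any use of strand and how shared reads were treated. Because TPM has a constant sum, a strong gain in some RNAs lowers all others in a library.

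The values are TPM, so log2(TPM + 1) was modelled on genotype with limma 3.58.1 (R 4.3.3, intensity trend). Features under 1 TPM in more than 3 libraries were left out, and the Benjamini-Hochberg threshold was 0.05. This scale understates the change of low genes. The members, lists and tests were chosen with earlier results of these data known.

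Of 15135 features, 14984 were matched to the Ensembl release 115 annotation of BDGP6, by symbol or through RefSeq synonyms. With annotated exon lengths, reads came out whole within a tolerance of 0.02 for 14214 features (108 members; the other 6 with another length), which hold 46301504 to 67964809 reads per library. Counting limits cover counting error only.

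Members were named if they were among the 10 lowest relative to wild type, the 6 most abundant, the 5 highest or lowest in the ratio of spo 2 to spo 1 and 3, within 10 kb of another member, renamed, or next to a limit of the rule. A further part of that naming rule, on protein identity, was not applied. Non-members named are spo, ecdysone response genes, up to 3 neighbours with the smallest p in each direction and overlapping genes; others were chosen after their values were seen, as were members outside the rule, such as CG42324.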

Additional observations from a re-analysis of the deposited data

How the results depend on the processing

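The size of the group followed its limits. It held 230 genes at a fold of at least 1.5, 55 at a fold of at least 3, 233 at a wild-type mean of at least 1 TPM, 75 at 10 TPM and 64 when members that overlap another gene were left out. It held 119 with median-of-ratios scaling, 99 with current CG symbols alone and 109 to 123 without 1 library. The spo percent of wild type fell by more than 1.5 times in 13 members when spo replicate 2 was left out. Genes lower in spo over all features tested numbered 2272 to 2947 without 1 library, and 45.1% of all calls were lower ones, against 49.6% with median-of-ratios scaling. Neighbours called lower numbered 41 to 55 without 1 library and 32 with a filter of 5 TPM, where 100 neighbours remained to be tested. Replicate numbers were not taken to pair the samples, since the correlations of their deviations by number were -0.0275, 0.0450 and 0.129. A fit with a replicate block called 2745 genes and 52 neighbours lower. Low depth limits members such as CG32368, whose lowest wild-type library holds 52 reads.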

Other observations

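Features with other names that met the same numeric criteria, chosen here after their values were seen, included some with spo values as even as those of CG4367. S-Lap1, a leucyl aminopeptidase family gene, had 0.0217, 0.0178 and 0.0448 TPM in spo embryos, against 8.03, 8.18 and 8.24 TPM in wild type. The p24 family gene p24-2 had 0.0777, 0.0531 and 0.0892 TPM in spo against 8.58, 8.71 and 8.59 TPM in wild type. In both, spo 2 was listed lowest, but these spo values lie near the level of single reads, where the order of libraries is not resolved. A single read in a gene of 1 kb corresponds to 0.0315 to 0.0460 TPM, depending on the library. The juvenile hormone synthesis gene jhamt had spo 2 at 41.8 times the mean of spo 1 and 3, next to the CG gene CG31300 at 76.2 times. Of the 113 such features, 88 had spo 2 as the highest spo library, against 102 of the 114 CG genes. CG17322, which lies beside the member CG17323 (Ugt36D1), was higher in spo, with 3.07, 5.17 and 2.60 TPM in spo against 0.983, 0.905 and 0.827 TPM in wild type. There too spo 2 was the highest spo library.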
